A study of Mus musculus with 6 samples.

Results

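The wild-type mouse kidney at E13.5, a stage counted in days of embryonic life, was described from the 3 Fz4+/+ arrays among the 6 arrays of the study, 1 array from each of 3 litters. The other 3 arrays held Fz4-/- kidneys of the same age and litters, which lack the Wnt and Norrin receptor Fz4 (gene Fzd4), and they served here as further samples of each litter. RNA of whole dissected kidneys was hybridised to Affymetrix MOE430.2 arrays, which read each transcript with 1 or more sets of short oligonucleotides (probe sets). The labels name no treatment, and they do not state the strain or how many embryos made up a sample, so any p-value measures the spread between these samples. Control probe sets were dropped, probe sets that the platform annotation ties to 1 gene were kept, and the brightest probe set by the mean of the 3 Fz4+/+ arrays stood for its gene, which gave 18193 genes from 34945 of 45101 probe sets.

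At this age the kidney grows by branching of the ureteric bud, an epithelial tube whose tips are capped by nephron progenitors. The progenitors send Gdnf to the receptor Ret on the tips, which keeps the tips branching, and the bud sends Wnt signals back, which turn some progenitors into epithelial vesicles, the forerunners of the nephron. Stromal cells, endothelium and a few immune cells fill the space between, and most transporters of the adult tubule appear as nephrons mature.

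The deposited values are log2 signals, and a probe set's brightness depends on its oligonucleotides as well as on its transcript. The ranks below are therefore ranks of signal, given as the percentage of the measured genes that were dimmer, and are no order of transcript abundance. In 9010 genes with several probe sets the median gap between the brightest and the dimmest was 2.58 log2, and in 41.1% of them the dimmest also lay above background. Background was set at 6.09 log2, the 95th percentile of 74 chemosensory receptor genes, which serve smell, pheromone sensing and taste and are made mainly by sensory cells. Of all genes, 12171 (66.9%) were above it, as were 4 of the 74 receptors by construction. With each array's own 95th percentile in its place, 6.88, 7.21 and 5.22 log2 in litters 1, 2 and 3, the genes above background numbered 10737, 10123 and 13787. Below, background means 6.09 log2 unless stated otherwise. Some genes named as under it, among them Wnt7b and Fgf10, exceeded the 5.22 log2 of litter 3 in that array.

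The array medians were 6.67, 6.62 and 6.74 log2, and the 3' probe sets of control genes exceeded the 5' ones, a measure that grows with RNA decay, by 0.76 to 0.90 log2 for actin and by 0.77 to 0.90 for Gapdh. Fzd4 read 11.21, 11.12 and 10.31 log2 in the Fz4+/+ arrays and 4.37, 3.58 and 6.22 in the Fz4-/- arrays, so the levels followed the labels. Xist, which is transcribed from the inactive X chromosome, was 12.11 to 12.54 log2 in the Fz4+/+ arrays. The Y-linked Eif2s3y read 4.48, 10.46 and 10.89 log2 in litters 1, 2 and 3, Kdm5d 3.71, 7.97 and 8.23, and Uty 3.75, 6.52 and 7.78. The Fz4+/+ array of litter 1 was thus low in all 3 Y-linked genes, while those of litters 2 and 3 had these genes and Xist together. The Fz4-/- array of litter 1 was not low, with Eif2s3y at 9.74, Kdm5d at 7.29, Uty at 5.56 and Xist at 12.3 log2.

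The brightest signals came from the protein-making machinery. The 25 genes of highest signal lay between 13.73 and 14.45 log2, and 18 of them are in the list of 46 measured cytosolic ribosomal protein genes, led by Rpl41 with 14.42, 14.49 and 14.43 log2 in litters 1, 2 and 3. The others were Rps3a1, a further ribosomal protein gene, Tmsb10, which binds actin monomers, the elongation factor Eef1a1, Lgals1 (galectin-1), Naca, which binds nascent chains at the ribosome, Ran, a GTPase of nuclear transport, and Vdac1, the pore of the mitochondrial outer membrane. Not all ribosomal genes ranked high. Of the 46, 42 were above background, but Rps16 read 2.89, 3.15 and 3.28 log2, at the 1.85th percentile.

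Transcription regulators of the kidney were well represented. Of 56 listed, 50 were measured and 49 lay above background, with a median percentile of 72, against 50 for all genes by definition and 66.9% of all genes above background. Sox11, a regulator of embryonic progenitors, was brightest with 13.27, 13.31 and 13.24 log2. Its 3 litters were nearly equal. Next stood the homeobox gene Meis2 (12.01, 12.23 and 12.18 log2), Foxc2 (12.10, 12.24 and 12.04), which acts in mesenchyme and podocytes, and Mecom (12.14, 12.16 and 11.83), a zinc finger regulator. Tcf21, required in renal mesenchyme, gave 11.98, 11.88 and 12.01 log2, and Mycn, which drives progenitor growth, gave 11.58, 11.79 and 11.50. Irx1, which marks segments of the later nephron, was the only member under background, at 5.97, 5.27 and 5.44 log2.

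Genes of nephron progenitors were above background in all 15 measured of 17 listed, with a median percentile of 71.1. Sall1, a zinc finger factor that the progenitors need to survive, had the highest signal with 11.72, 11.81 and 11.45 log2. Wt1 gave 11.09, 11.17 and 11.10, Eya1 10.64, 11.06 and 11.01, and Itga8, the integrin subunit through which mesenchyme meets the bud, 10.54, 10.53 and 10.68. Six2, the factor that holds progenitors undifferentiated, read 7.88, 8.09 and 8.03 log2 through its probe set, at the 51.3rd percentile, and Osr1 read 6.94, 6.37 and 7.06. The median SD over the list was 0.19 log2, close to the 0.21 over all genes. In 0 of the 15 was a litter apart from both others by over 1 log2, against 5.52% of all genes.

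The bud's own genes lay in the same range. All 9 measured genes of the ureteric tip and Ret response were above background, with a median percentile of 69.6. Ret read 9.49, 9.57 and 9.59 log2 and its co-receptor Gfra1 10.34, 10.26 and 10.53, and both varied little between litters. Among genes induced by Ret signalling, Dusp6, a phosphatase that restrains ERK, gave 11.17, 11.26 and 10.84 log2, Etv5 10.59, 10.99 and 10.53, and Etv4 8.84, 8.84 and 9.13. Wnt11, secreted by the tips, gave 8.02, 8.17 and 8.46. Of 18 measured genes of the ureteric epithelium 13 were above background (median percentile 69.6), led by the calcium-binding Calb1 at the 96.3rd percentile. Krt18 and Krt8, keratins of simple epithelia, ranked high, whereas the uroplakins Upk3a (5.83, 5.95 and 5.60 log2) and Upk1b (5.34, 5.15 and 5.02), proteins of the mature urothelium, were below background in every litter.

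**Figure D1:**
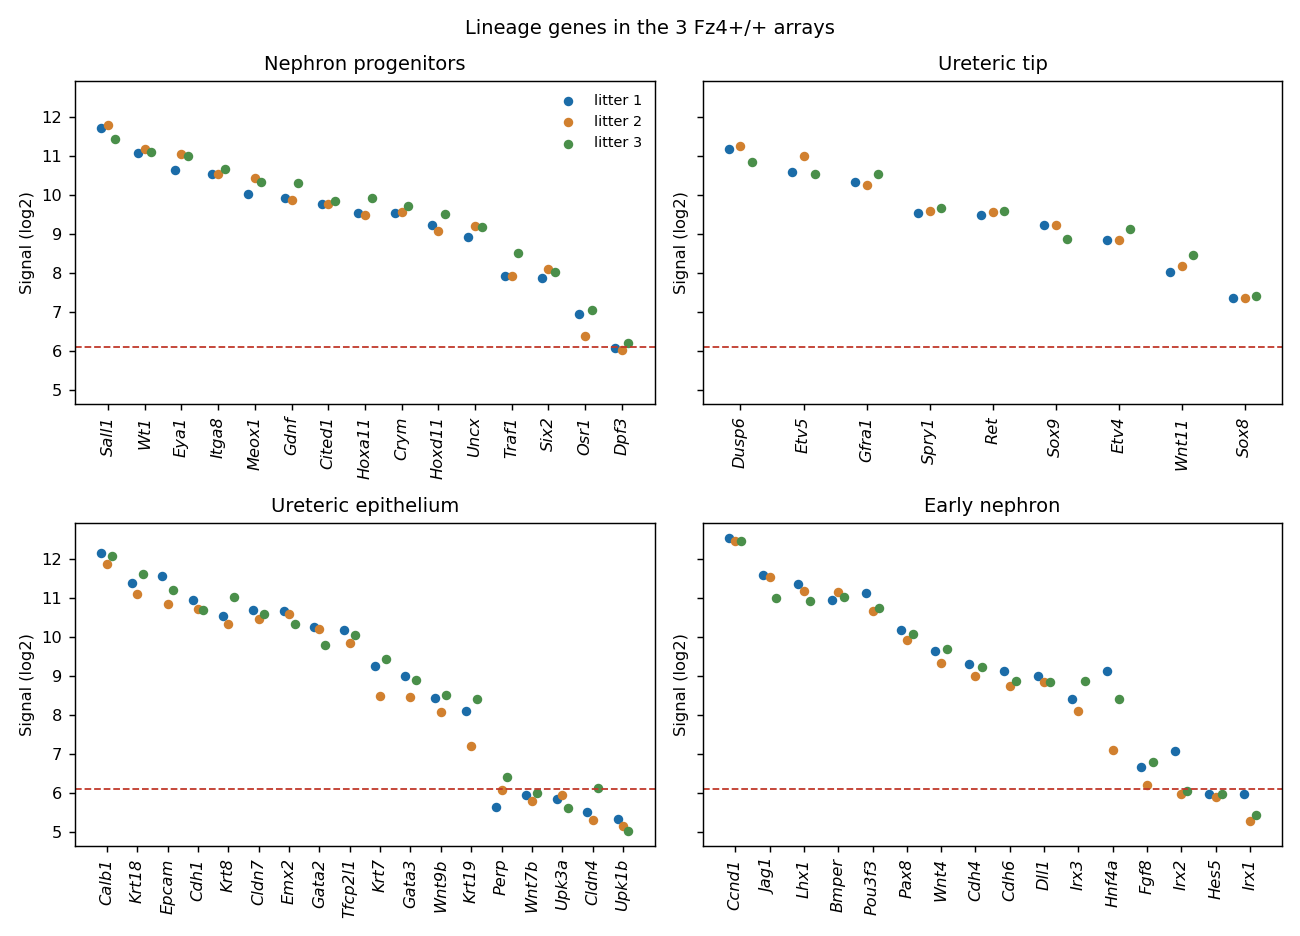
Log2 signal (y axis) of each measured gene of 4 lineage lists (x axis, ordered by mean) in Fz4+/+ litters 1, 2 and 3 (colours), with background at 6.09 log2 as a dashed line. All 15 progenitor and all 9 tip genes have a mean above the line, the 3 litters mostly overlap, and Hnf4a stands out with 7.10 in litter 2 against 9.14 and 8.42.

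Early nephron epithelium could be seen and later nephron function hardly. Of 16 measured early nephron genes 14 were above background (median percentile 63.2). Lhx1, needed for the vesicle to form, gave 11.36, 11.17 and 10.92 log2, Jag1, a Notch ligand, 11.59, 11.55 and 11.01, Pax8 10.19, 9.92 and 10.08, and Wnt4, which drives the change from mesenchyme to epithelium, 9.64, 9.33 and 9.69. Hnf4a, a factor of the proximal tubule, was the least even, at 9.14, 7.10 and 8.42 log2, and the Fz4-/- samples of the same litters read 9.04, 9.28 and 9.01, so the low value was that of 1 array. Fgf8 (6.66, 6.20 and 6.80), a survival signal of early nephrons, lay just above background.

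In the podocyte list 9 of 12 measured genes were above background (median percentile 48.3), with a wide range within the list. Foxc2 and Tcf21, which mesenchyme also makes, were at the 96.8th and 95.9th percentile, and Podxl, a sialomucin of the podocyte surface that endothelium also carries, gave 10.64, 10.54 and 10.70 log2. Nphs1 (nephrin), the defining protein of the slit diaphragm, read 4.24, 4.23 and 4.11, and the collagen chain Col4a3 of the mature glomerular basement membrane 4.50, 4.24 and 4.40. Both were below background in every litter. Genes of mature tubule transport had the lowest median of the kidney lists, the 26.7th percentile, and 4 of 20 measured were above background: Slc5a2, Scnn1b, Aqp1 and Trpm6. Megalin (Lrp2) read 6.07, 5.19 and 6.57 log2, its partner Cubn 6.07, 6.67 and 4.72, and Aqp2, the water channel of the collecting duct, 5.39, 5.69 and 5.26. Slc12a1, the salt transporter of the thick ascending limb, gave 3.06, 3.36 and 3.07. Slc5a2, the glucose transporter SGLT2, stood apart with 8.41, 8.60 and 8.67 log2. Without the litter 3 array, background was set anew from the other arrays, and 2 of the 20 passed. The share of all genes above background then was 57.6%, against 66.9% with all 3 arrays.

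**Figure D2:**
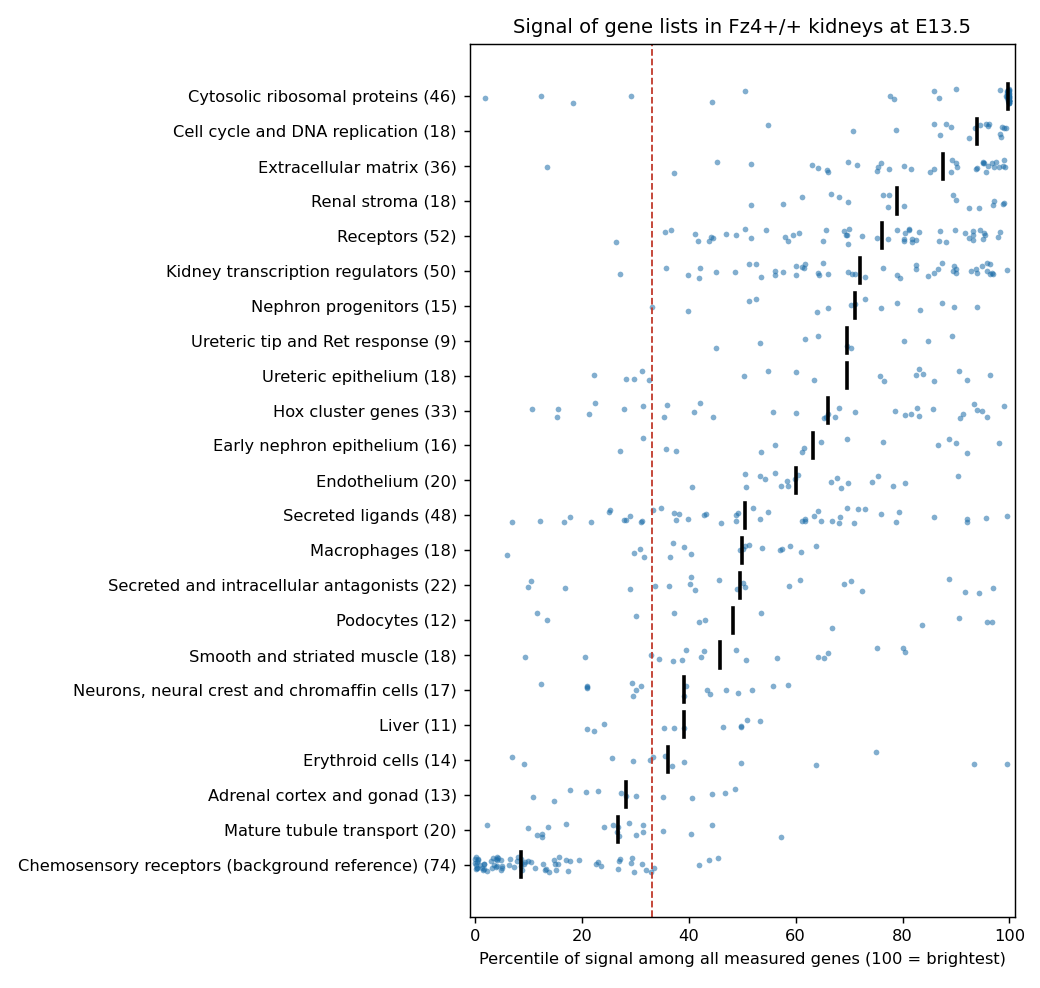
Percentile of signal (x axis) of every measured gene in each list (rows, number measured in brackets), with the list's median as a bar and background as a dashed line. Medians run from 26.7 for mature tubule transport to 94 for the cell cycle and 99.8 for ribosomal proteins, with the chemosensory reference at 8.55.

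The stroma was bright. All 18 measured stromal genes were above background, with a median percentile of 78.9. The fibrillar collagens Col3a1 (12.56, 12.88 and 12.85 log2), Col1a1 (12.62, 12.93 and 12.58) and Col1a2 led the list. Foxd1, the defining regulator of cortical stroma, gave 10.73, 11.22 and 11.38 log2, Aldh1a2, which makes retinoic acid, 11.55, 11.91 and 11.70, and the growth factor receptor Pdgfra 11.25, 11.52 and 11.56. Of these, Aldh1a2 and Col1a1 were highest in litter 2 and Foxd1 and Pdgfra in litter 3, and litter 1 was lowest for 3 of the 4. Endothelial genes were above background in 20 of 20 (median percentile 60.1). They included the receptors Tek (10.20, 10.22 and 10.73), Kdr (9.50, 9.62 and 9.58) and Flt1 (8.66, 8.78 and 8.55) and the junction proteins Cldn5 (9.98, 9.68 and 10.07) and Cdh5 (8.27, 8.33 and 8.03). In whole organs, fewer cells of a type and less RNA per cell cannot be told apart.

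Receptors ranked higher by signal than ligands. Of 48 secreted or membrane-bound ligands 36 were above background (median percentile 50.6), and of 52 measured receptors 51 were (median percentile 76.2). When each gene was given the mean of its probe sets, the medians were 52.8 and 61.2, so the size of this gap depends on the probe sets taken. The fetal growth factor Igf2 was the brightest ligand with 13.17, 13.31 and 13.18 log2, and its receptors Igf1r (10.60, 10.68 and 10.04) and Igf2r (10.53, 10.79 and 10.42) were also bright. Slit2, which acts on Robo receptors to place the bud, gave 11.85, 11.90 and 11.95, and Robo2 9.66, 8.78 and 10.10, with litter 2 low. Gdnf itself gave 9.93, 9.88 and 10.31 log2.

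Among Wnt ligands, Wnt4 had the highest signal. Wnt5a gave 9.01, 8.66 and 9.11 log2, Wnt9b, the signal of the bud that induces nephrons, 8.44, 8.08 and 8.52, and Wnt6 6.84, 7.12 and 7.40, while Wnt7b (5.95, 5.80 and 5.99) and Wnt2b (4.15, 4.56 and 4.09) were below background. Of the 10 frizzled receptors, Fzd2 (12.32, 12.50 and 12.34), Fzd1 (11.74, 11.84 and 11.83) and Fzd7 (11.69, 11.95 and 11.55) were brightest, and Fzd9 (5.38, 5.27 and 5.81) alone was below background. The co-receptor Lrp6 gave 11.63, 11.68 and 11.33 and Lrp5 7.17, 6.99 and 7.53. The R-spondins, which strengthen Wnt signals, were split: Rspo3 (9.33, 9.56 and 10.02) and Rspo1 (8.74, 8.88 and 9.90) were above background, Rspo2 (4.62, 4.95 and 4.72) and Rspo4 (5.06, 5.24 and 5.09) below it in all litters. The Fz4 ligand Norrin (Ndp) read 5.26, 5.23 and 5.64, below background, and its co-receptor Tspan12 8.53, 8.61 and 8.71.

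In the FGF family the receptors Fgfr2 (11.86, 11.96 and 11.69 log2) and Fgfr1 (10.80, 10.98 and 11.19) were bright. The ligands were dim: Fgf9 and Fgf20, which keep progenitors alive, gave 8.10, 8.62 and 6.57 and 6.35, 6.33 and 6.11, and the stromal and mesenchymal Fgf7 (5.70, 5.61 and 5.65) and Fgf10 (5.67, 5.72 and 5.79) were below background. Bmp7, a survival factor of progenitors, gave 9.74, 9.61 and 10.07, Bmp4, which restrains budding along the duct, 8.99, 9.23 and 9.15, and their receptor Bmpr2 11.50, 11.56 and 11.57. Notch2, the Notch receptor that shapes the proximal nephron, had the highest signal of the receptor list with 12.60, 12.73 and 12.31 log2. Sonic hedgehog (Shh), made by the ureter, gave 7.18, 7.23 and 8.04, and its receptor and target Ptch1 11.92, 11.88 and 11.78.

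Antagonists were as mixed as the ligands, with 18 of 22 above background and a median percentile of 49.6. Sfrp2 (12.15, 12.40 and 11.99 log2) and Sfrp1 (11.51, 11.79 and 11.78), which bind Wnt ligands, and Spry2 (11.33, 11.50 and 11.16), which dampens receptor kinases, led. Axin2, a feedback inhibitor and target of beta-catenin, was nearly equal in the litters at 9.78, 9.75 and 9.74. Below background stood the BMP antagonists Grem1 (5.36, 5.07 and 3.67), which the bud needs to grow out, and Nog (4.15, 3.74 and 4.32), with the Wnt inhibitors Sfrp5 and Wif1.

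Matrix genes had a high median, the 87.5th percentile, with 35 of 36 measured above background and 16 among the 1820 genes of highest signal. Sparc, a collagen-binding glycoprotein, gave 12.90, 12.97 and 12.84 log2, and the large proteoglycan versican (Vcan) 12.39, 12.56 and 12.40. Among basement membrane genes, the collagen chain Col4a1 (12.23, 12.25 and 12.45), the laminin chain Lamb1 (11.66, 11.66 and 12.14) and the linker Nid1 (11.49, 11.81 and 11.61) were bright. The proteoglycan perlecan (Hspg2) gave 9.80, 10.20 and 10.11. Chains of the mature glomerulus ranged widely, with Col4a5 at 9.74, 10.11 and 10.09, Lamb2 at 9.02, 9.01 and 9.31 and Col4a4 at 6.24, 6.36 and 6.95, and Col4a3 was the member under background. Nephronectin (Npnt), the ligand of integrin alpha 8 on the bud, gave 9.86, 9.85 and 10.29.

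Hox genes, which set position along the body axis, differed between ranges of paralogue number. In groups 3 to 11, 23 of 24 genes were above background, with a median of 10.3 log2. In groups 1 and 2, 3 of 4 were, with a median of 6.69, and in groups 12 and 13, 0 of 5, with a median of 5.19. The highest mean of groups 12 and 13 was 5.94 log2, of Hoxd13, which read 5.73, 5.51 and 6.59 and so passed background in litter 3. Hoxd9 was brightest (12.72, 12.73 and 12.79), and the group 11 genes that the kidney depends on, Hoxa11 (9.54, 9.49 and 9.93) and Hoxd11 (9.23, 9.07 and 9.51), were above background in every litter. Hoxb7, which the bud makes, was the exception of the middle groups with 4.67, 4.64 and 4.37 log2. Within groups 3 to 11 the means did not follow the number, with Hoxb3 at 11.56, Hoxa4 at 6.38 and Hoxa7 at 6.91 log2.

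**Figure D3:**
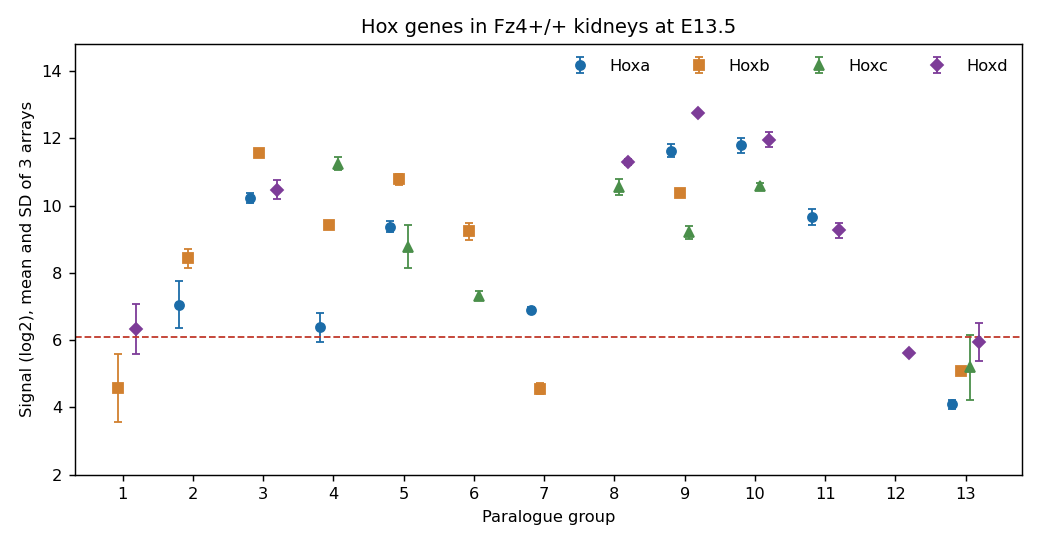
Mean log2 signal (y axis; bars are the SD of the 3 Fz4+/+ arrays) of 33 Hox genes by paralogue group (x axis) and cluster (colour and shape), with background at 6.09 log2 as a dashed line. The means of groups 3 to 11 lie above the line apart from Hoxb7, and the means of all 5 genes of groups 12 and 13 lie below it.

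Genes of the cell cycle and DNA replication had a median percentile of 94, with 18 of 18 measured above background. Pcna, the sliding clamp of replication, gave 12.96 ± 0.04 log2 (SD, n = 3 litters). Birc5 (survivin), which acts in mitosis, gave 12.63, 12.61 and 12.65 log2, Rrm2, which makes deoxynucleotides, 12.68, 12.81 and 12.34, and Mki67, a marker of dividing cells, 12.35, 12.37 and 12.78. Their SDs between litters were 0.02 to 0.24 log2. Litter 3 was the highest for Mki67 and the lowest for Rrm2 in both genotypes (Fz4-/- 12.43, 12.40 and 12.68, and 12.69, 12.72 and 12.38). In limma's F test of litter their adjusted p was 0.228 and 0.201, and 0.0223 and 0.0147 with a variance prior that follows the mean signal. Their promoters are shown because the list had the highest share of promoters with a GC box or a CCAAT box among the lists described here, and because they can be set beside promoters of other cell types. RefSeq promoters of GRCm38.p6 (250 bases before to 50 after a start) matched 14452 of the 18193 genes, with 18109 promoters. Of 16 cell cycle promoters (15 genes), 15 held GGGCGG, the GC box (93.8%), 13 held CCAAT (81.2%) and 0 held TATAAA (the TATA box), searched on both strands, against 52.3%, 37.4% and 9.77% of the promoters of all measured genes. GGGCGG and CCAAT can overlap on opposite strands. The 150 bases before the start of the 4 genes, which were the brightest of the list with 1 promoter in the table, are given 5' to 3' in the gene's direction, with any of the 3 motifs on either strand in capitals (ATTGG is CCAAT on the other strand). They lie at chr2:132253181-132253330 on the minus strand (Pcna), chr11:117849087-117849236 on the plus strand (Birc5), chr12:24708104-24708253 on the plus strand (Rrm2) and chr7:135716380-135716529 on the minus strand (Mki67).
Pcna: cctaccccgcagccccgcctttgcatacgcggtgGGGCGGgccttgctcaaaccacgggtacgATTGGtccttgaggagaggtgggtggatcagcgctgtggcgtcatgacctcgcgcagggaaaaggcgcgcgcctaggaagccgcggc
Birc5: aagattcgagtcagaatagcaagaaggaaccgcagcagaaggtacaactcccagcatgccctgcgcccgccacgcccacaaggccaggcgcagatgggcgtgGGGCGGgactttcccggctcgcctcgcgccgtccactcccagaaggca
Rrm2: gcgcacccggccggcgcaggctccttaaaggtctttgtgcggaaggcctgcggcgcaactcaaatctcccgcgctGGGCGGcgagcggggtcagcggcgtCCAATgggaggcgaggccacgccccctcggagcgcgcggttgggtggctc
Mki67: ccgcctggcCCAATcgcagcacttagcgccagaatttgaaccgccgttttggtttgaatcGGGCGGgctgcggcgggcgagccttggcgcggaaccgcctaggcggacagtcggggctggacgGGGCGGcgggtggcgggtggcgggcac

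In these windows GGGCGG stood 116, 48 and 75 bases before the start in Pcna, Birc5 and Rrm2, and at 90 and 27 in Mki67. CCAAT stood 87, 50 and 141 bases before the start in Pcna, Rrm2 and Mki67, and Birc5 had none in its window. TATAAA was absent from the 14 early nephron and 9 podocyte promoters too, and macrophage and endothelial promoters (12.5% each) and those of adrenal and gonad genes (14.3%) were near the 9.77% of all. Some other lists held more, kidney lists among them. TATAAA was found in 5 of 12 erythroid promoters (41.7%), 5 of 16 muscle promoters (31.2%), 3 of 11 liver promoters (27.3%) and 30.2% of chemosensory receptor promoters. It was also in 3 of 12 stromal promoters (25%) and in 21.4% of antagonist, 21.1% of mature tubule and 18.8% of nephron progenitor promoters. GGGCGG was found in 0 of the 11 liver promoters and 3.17% of the chemosensory ones. The brightest member with TATAAA in the window is shown for the erythroid, liver and muscle lists, so their motif was used to choose them. The genes are the embryonic alpha-like globin Hba-x, the fetal plasma protein Afp and the slow-muscle troponin Tnnt1, at chr11:32276450-32276599 on the plus strand, chr5:90490564-90490713 on the plus strand and chr7:4515976-4516125 on the minus strand.
Hba-x: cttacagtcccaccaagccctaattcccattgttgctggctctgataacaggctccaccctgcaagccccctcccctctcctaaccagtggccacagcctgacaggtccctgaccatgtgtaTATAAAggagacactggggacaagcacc
Afp: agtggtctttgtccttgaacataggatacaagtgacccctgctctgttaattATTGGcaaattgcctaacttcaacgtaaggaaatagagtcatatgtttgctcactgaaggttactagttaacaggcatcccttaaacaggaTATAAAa
Tnnt1: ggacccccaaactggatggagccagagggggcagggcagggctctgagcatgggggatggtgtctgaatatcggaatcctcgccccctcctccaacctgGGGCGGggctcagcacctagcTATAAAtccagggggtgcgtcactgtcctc

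TATAAA lay 28 and 30 bases before the start in Hba-x and Tnnt1, and 7 in Afp. The GC content of the windows was 56% for Hba-x, 38% for Afp and 63.3% for Tnnt1, against 64.7% to 72.7% for the 4 cell cycle genes. A match is a description of letters, and no use of any motif was measured.

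Over all measured genes, the shares of GGGCGG and TATAAA differed between dim and bright genes, and that of CCAAT hardly did. When the genes were split into 5 groups of nearly equal size by mean signal, TATAAA was held by 18%, 10.9%, 7.98%, 6.17% and 7.1% of promoters from the dimmest to the brightest group. GGGCGG rose through the groups, at 23.7%, 42%, 58.8%, 64.6% and 67.1%, and CCAAT did not, at 38.3%, 34.7%, 38.2%, 36.5% and 39%. The 95% Wilson interval was 16.7% to 19.3% for TATAAA in the dimmest group (587 of 3267 promoters) and 6.33% to 7.95% in the brightest (277 of 3902), and covers counting error only. For GGGCGG the intervals were 22.3% to 25.2% and 65.6% to 68.6%. Mean GC content moved with them, from 51.2% in the dimmest to 62% in the brightest group, and its part in the motif shares was not tested.

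**Figure D4:**
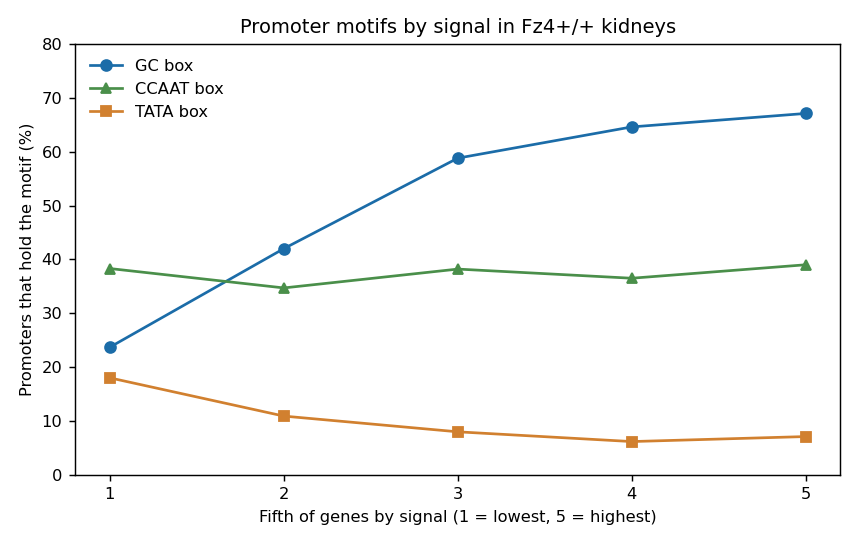
Percentage of promoters (y axis) that hold the letters of a GC box, a CCAAT box or a TATA box on either strand, in 5 nearly equal groups of genes by mean Fz4+/+ signal (x axis). The GC box goes from 23.7% to 67.1%, the TATA box from 18% to 7.1%, and the CCAAT box stays between 34.7% and 39%.

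Between litters, the Fz4+/+ kidneys were alike for most genes. Pearson's r over all genes was 0.992 between litters 1 and 2, 0.978 between 1 and 3 and 0.972 between 2 and 3, and the genes apart by over 1 log2 numbered 228, 1234 and 1580. Each litter's Fz4+/+ and Fz4-/- arrays had r of 0.995, 0.989 and 0.994. The Fz4+/+ array of litter 3 thus resembled its own Fz4-/- array more than the other Fz4+/+ arrays. Litter 2 did not follow this, since its Fz4+/+ array had r of 0.992 with that of litter 1. The median SD over the 3 litters was 0.203 log2 for genes above background (0.142 in the Fz4-/- arrays), and without litter 3 it was 0.104. Among the 1820 genes of highest signal it was 0.119 and 0 had an SD over 1, while 177 of all 12171 genes above background (1.45%) had. The 10 smallest SDs among those 1820 genes were 0.00801 log2 or less: Ctps, which makes CTP, Spcs1 of the signal peptidase, Kansl2, Tubb2a, Arpc4 of the Arp2/3 complex, Znrf1, the phosphate carrier Slc25a3 and the ribosomal Rps28, Rps9 and Rpl6. These are the extremes of 1820 SDs from 3 arrays each, so they do not show that these genes are unusually stable.

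The F test of litter over the 6 arrays, with genotype as a term (limma, Benjamini-Hochberg), called 0 of 27022 probe sets (0%) at an adjusted p under 0.05, with a lowest adjusted p of 0.145. At an unadjusted p under 0.05 it passed 6225 (23%). With a variance prior that follows the mean signal, 2077 (7.69%) were called, and without the Fz4+/+ or the Fz4-/- array of litter 2 the counts were 326 and 1506, so whether litters pass the threshold depends on the variance model and on these arrays. In the lists with unadjusted p, 1 of 15 progenitor genes, 6 of 49 regulators, 13 of 51 receptors, 7 of 16 macrophage genes and 0 of 42 ribosomal genes passed, against 19.7% of all genes tested. Of the ligands, 11 of 37 passed. The highest shares were in small lists, with 4 of 5 adrenal and gonad genes and 4 of 5 chemosensory receptors.

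Litter 3 stood apart most. It was lower than both other litters by over 1 log2 in 549 genes (3.02% of 18193) and higher in 308 (1.69%), whereas for litter 1 the counts were 38 (0.209%) and 23 (0.126%) and for litter 2 they were 62 (0.341%) and 59 (0.324%). The Fz4-/- arrays, which took no part in this choice, had litter 3 as the lowest in 507 of the 549 (92.3%, against 30.6% of all genes) and as the highest in 247 of the 308 (80.2%, against 46.8%). The labels do not say whether samples of a litter were handled or hybridised together, so litter and handling cannot be told apart. The lower genes were dim, with a median of 5.77 log2, but the higher genes were dim too, with 6.19, against 7.88 for all genes. These medians include the litter 3 values used to choose the genes. Of the lower genes, 217 were above background, and 18 of the 74 chemosensory receptors were among the lower genes. The mean over those 74 receptors was 4.35, 4.40 and 3.63 log2 in the Fz4+/+ litters and 4.35, 4.13 and 3.76 in the Fz4-/- litters. Promoters of the lower genes had a GC content of 51.3%, against 51.2% and 56.7% in the dimmest and the next of the 5 groups by signal and 58.4% for all measured genes.

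**Figure D5:**
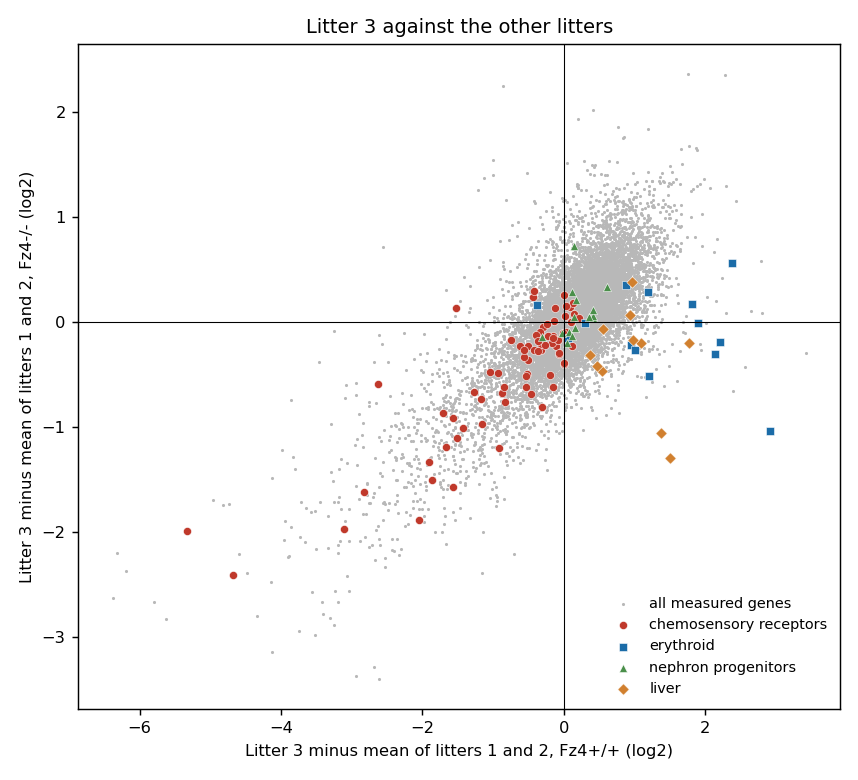
Litter 3 minus the mean of litters 1 and 2 (log2), in Fz4+/+ (x axis) and Fz4-/- arrays (y axis), for 18193 genes in grey and 4 lists in colour. Chemosensory receptors lie mostly to the lower left, progenitor genes near the origin, and erythroid and liver genes mostly to the right of zero with Fz4-/- differences on both sides of zero.

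Among genes above background, those with the largest spread were mostly low in litter 3. Of the 15 largest SDs, 13 had litter 3 lowest in Fz4+/+, and in all 13 it was lowest in Fz4-/- too. Since background was set on the mean, a gene high in 1 litter alone could drop out, so the 13 are a description of these genes and do not support a direction. The other 2 were the Y-linked Eif2s3y and Kdm5d. Mup10, a major urinary protein gene, read 9.54, 10.37 and 3.58 log2, the milk casein gene Csn1s2a 9.09, 9.04 and 2.87, the vomeronasal receptor gene Vmn2r84 9.19, 9.19 and 3.86, and the bone and tooth matrix gene Dmp1 8.19, 9.47 and 3.87. These genes are known from other tissues. Each was under background in the Fz4+/+ array of litter 3, while the Fz4-/- array of that litter read 6.73 for Mup10, 6.65 for Csn1s2a, 6.74 for Vmn2r84 and 6.49 for Dmp1, all above background. The rest were the phosphatase gene Ptprj (9.85, 9.90 and 5.05), Hecw1, Ugt2b37, Zfp957, Gm3715, Pramel34, 1700040G22Rik, 4933438K21Rik and 6430553K19Rik.

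Of the 52 receptors, 4 had a Fz4+/+ litter apart from both others by over 1 log2 (Fzd8, Lgr5, Agtr1a and Notch4), a share of 7.69% that is near the 5.52% of all genes, and for all 4 the same litter was the extreme in Fz4-/-. The same held for Fgf9 and Rspo1 among 3 such ligands. Over all genes chosen this way it held for 68.4% of those lower in litter 1. It held for 92.3% of those lower and 80.2% of those higher in litter 3, so this repeat is not particular to receptors or ligands. Fzd8 read 5.38, 7.37 and 8.30 log2 in Fz4+/+ and 6.23, 7.89 and 8.37 in Fz4-/-, lowest in litter 1 of both genotypes (adjusted p = 0.145 in limma's F test). Lgr5, a receptor for R-spondins, read 7.19, 6.93 and 4.92 and in Fz4-/- 6.91, 6.30 and 4.90, lowest in litter 3 of both (adjusted p = 0.145). Neither passed the threshold with the constant prior, and both passed it with a prior that follows the mean signal (adjusted p = 0.00724 for Fzd8 and 0.0126 for Lgr5 in limma). Fzd4 itself had an SD of 0.50 log2 between the Fz4+/+ litters.

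Lists of cells from blood, liver, muscle, nerve and adrenal had median SDs of 0.36 to 0.70 log2 in Fz4+/+, against 0.15 to 0.27 for the lists of kidney cells, signals, matrix and cell cycle. In the Fz4-/- arrays the 2 ranges were 0.27 to 0.58 and 0.08 to 0.26 log2. There liver and muscle had 0.58 and 0.56, whereas erythroid, macrophage, neural and adrenal lists had 0.29, 0.27, 0.29 and 0.31. The median SD of all genes was 0.21 log2 in Fz4+/+ and 0.16 in Fz4-/-. Erythroid genes were above background in 9 of 14 measured (median percentile 36.2, median SD 0.70 log2), led by the embryonic globin Hbb-y with 13.16, 13.30 and 13.29. In litter 3, 8 of the 14 were higher than both other litters by over 1 log2, against 1.69% of all genes, among them Slc4a1, the anion exchanger of red cells, with 8.59, 8.14 and 10.57, and Klf1, their master regulator, with 5.78, 5.49 and 7.77. In the Fz4-/- arrays 2 of these 8 were highest in litter 3, and Slc4a1 read 9.59, 8.83 and 9.02, so the high values were mostly those of 1 array. Without that array, background was set anew from the others. Of the 14, 5 were then above it, and the share of all genes above it fell from 66.9% to 57.6%.

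Liver genes were lowest in litter 2, and the list means of litters 1 and 3 were 6.91 and 7.41 log2. Of 11 measured, 8 were above background, or 5 without litter 3 and with background set anew. Alb read 8.37, 6.64 and 8.88 in Fz4+/+ and 8.39, 6.41 and 6.34 in Fz4-/-, and the transport protein Ttr 7.59, 6.45 and 8.52 and in Fz4-/- 8.04, 5.33 and 5.39. For these 2 genes litter 3 was high in Fz4+/+ and low in Fz4-/-. Apoa2, an apolipoprotein gene, read 8.41, 6.67 and 8.50 and in Fz4-/- 8.22, 6.41 and 7.69, with litter 2 lowest and litter 3 well above it in both. Muscle genes went the other way, with 15 of 18 above background and list means of 7.53, 8.09 and 7.37 in Fz4+/+ and 7.43, 6.46 and 7.44 in Fz4-/-. Tnnc1, a troponin of heart and slow muscle, read 9.81, 10.92 and 9.23 in Fz4+/+ and 9.47, 7.50 and 9.86 in Fz4-/-: litter 2 was high in the first and low in the second. Macrophage genes were above background in 14 of 18 (means 7.18, 7.03 and 7.70), and Csf1r, the receptor they need, was highest in litter 3 of both genotypes (8.50, 8.47 and 9.69, and 8.94, 8.74 and 9.55).

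Genes of neurons and chromaffin cells were above background in 9 of 17, with means of 6.19, 6.61 and 6.80 log2. Chgb, a granule protein of chromaffin cells, read 6.07, 8.75 and 9.36 in Fz4+/+ and 5.79, 5.92 and 6.88 in Fz4-/-. Adrenal cortex and gonad genes were above background in 5 of 13 (means 5.73, 6.06 and 5.85), or 2 without litter 3 and with background set anew. The defining regulator Nr5a1 was below background at 5.08, 5.21 and 4.80. These values stand beside the litter differences above. Their part in those differences was not tested.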

How the data were processed

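Total RNA (1 ug per sample) of E13.5 kidneys was read on 6 Affymetrix MOE430.2 arrays, 3 Fz4+/+ and 3 Fz4-/-. Per the submitters' processing notes, the authors used RMA (no version is given); its log2 values were used as deposited. RMA makes the arrays' distributions nearly equal, so a change of total RNA cannot be seen. No scans or detection calls were used. By the platform annotation, 34958 probe sets had 1 gene, 932 several and 9211 none. After 64 control probe sets were dropped, the brightest probe set by the Fz4+/+ mean stood for a gene, with no genotype contrast.

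Litters were compared with an F test in limma 3.58.1 (R 4.3.3), with genotype as a term, over 27022 probe sets at or above the 40th percentile of mean signal. The number of arrays limits precision. The test was checked on simulated data. Promoter motifs were counted in RefSeq sequences of GRCm38.p6.

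Members, gene lists and background genes were chosen with earlier results of these data known. Named genes are list members, the 25 of highest signal, the 15 of largest SD among genes above background and the 10 of smallest SD among the 1820 brightest. Probe set choice, background, normalization, variance prior, filter and single arrays were varied.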

Additional observations from a re-analysis of the deposited data

How the results depend on the processing

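No paired analysis was possible because the genotypes were not compared, and the litter number, which pairs the arrays, was itself the factor tested. With a gene's probe sets averaged rather than the brightest taken, median percentiles were 81.5 for nephron progenitors, 74.1 for ureteric epithelium, 37.5 for podocytes, 24 for mature tubule, 85.9 for stroma, 74.3 for endothelium, 52.8 for ligands, 61.2 for receptors, 51.9 for antagonists, 84.5 for matrix, 45.6 for macrophages, 26.8 for adrenal and gonad, 45.2 for liver, 80 for Hox genes and 99.5 for ribosomal genes. Without probe sets that can read several transcripts (suffixes s and x) they were 72.6 for nephron progenitors, 71.4 for ureteric tip, 49.7 for podocytes, 61.8 for endothelium, 74.3 for receptors, 51.1 for antagonists, 40.1 for macrophages, 67.4 for Hox genes and 99.8 for ribosomal genes. With background at the 99th percentile, 10140 genes were above it, with 2 of mature tubule, 5 erythroid, 5 neural, 3 adrenal and gonad, 9 muscle and 5 liver genes. With 1 array left out and background set anew from the arrays kept, genes above background ranged from 10481 to 12836. Mature tubule genes ranged from 2 to 6, erythroid from 5 to 12, adrenal and gonad from 2 to 6 and liver from 5 to 8. All of these counts were lowest without litter 3. Median percentiles then ranged from 71.8 to 73.3 for regulators, 50.4 to 52.9 for ligands, 48.6 to 49.9 for antagonists, 47.8 to 50 for macrophages, 33.7 to 38 for neural genes and 27.4 to 29.7 for adrenal and gonad. The median SD ranged from 0.104, without litter 3, to 0.223. The litter test called 3 probe sets without the genotype term and 2077 with a trended prior, and from 0 to 1506 with 1 array left out, the highest without Fz4-/- litter 2 and 326 without Fz4+/+ litter 2. The cause was not tested. The promoter alternatives were chosen after seeing the data. In the last 100 bases, TATAAA was in 9.64% and 2.56% of promoters of the dimmest and brightest group, and GGGCGG in 15.9% and 47.9%, and genes with 1 promoter gave 71.2% for GGGCGG in the brightest. The counts of genes lower and higher in litter 3 were 501 and 294 after quantile normalization and 421 and 230 with probe sets averaged, also added after seeing the data. Dim genes near background have the least certain order, since signal limits them.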
